A study of Drosophila melanogaster with 12 samples.

Results

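Subjective day and subjective night were compared in heads of y w; tim01 flies kept in constant darkness, on the 6 of 12 arrays whose titles carry a circadian time. The subjective day group held the CT2, CT6 and CT10 arrays, and the subjective night group the CT14, CT18 and CT22 arrays (CT, hours since the start of the subjective day). The tim01 allele is a loss-of-function allele of timeless, the y and w markers were shared by all samples, and no array of a wild-type strain was analysed here. All flies had first spent 3 days in 12 h of light and 12 h of darkness. They were then sampled every 4 h through a further light-dark day (LD; ZT2, ZT6 and ZT10 in the light phase, ZT14, ZT18 and ZT22 in the dark phase) and through the following dark day (DD). Sex and age of the flies are not given in the labels, and every array holds 1 pool of about 100 to 200 heads. All 13966 probe sets other than array controls were tested.

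In wild-type flies the proteins Clk and cyc switch on per and tim, whose products return to the nucleus and block their own activators, and this loop gives head transcripts a daily rhythm that persists without light. Flies that lack timeless lose the loop and its behavioural rhythm, so a difference between subjective day and night in such flies concerns what remains by time of day when both light and this loop are missing. In head tissue, immune effector peptides come chiefly from the fat body that surrounds the brain, and the eye contributes much of the RNA.

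The deposited values are log2 RMA signals, in which 1 unit is a doubling. Across probe sets the 6 DD arrays correlated with each other at 0.992 to 0.996. The photoreceptor transcripts of Arr2, an arrestin, and trp, a light-activated channel, read 11.85 to 12.07 and 9.22 to 9.49 in DD, and the neuronal transcript of nSyb read 4.69 to 5.11. Transcripts of other body parts stood high at CT2. The mean centred level of 43 gut enzyme genes was 0.32 there, -0.01 at CT6 and -0.04 at CT10, against -0.13 to -0.11 in the subjective night, and for 30 male reproductive tract genes it was 0.52, -0.23 and -0.09, against -0.22 to -0.17. In LD the same lists were highest at ZT2, at 0.59 and 0.82. Because the samples are whole heads, more cells of a type and more RNA per cell cannot be told apart. Each array is another hour, so the errors of the comparison are those between the hours of a phase.

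Few transcripts passed the test of time of day. With limma, 9 of 13966 probe sets (0.0644%) had an adjusted p under 0.05, 8 of them higher (0.0573%) and 1 lower (0.00716%) in the subjective day. In all 9 the arrays of the groups did not overlap. Over all probe sets, 5.4% had every subjective day array above every night array and 4.82% had it below. The 9 were picked by the same contrast, so their separation follows in part from that choice. A single gene symbol was carried by 6: Mtk, DptB and Drs, which encode antimicrobial peptides, CG4757 and CG9150, and retinin, a gene of the corneal lens. An unadjusted p under 0.05 was reached by 816 probe sets (5.84%), 454 higher (3.25%) and 362 lower (2.59%) in the subjective day. Changes were small in general: over 10844 genes, each taken at its brightest probe set, the median size was 0.06, and 43 probe sets were higher and 4 lower by at least 0.5. The count of 9 rested on a few arrays. It was 0 without CT2 (limma, 665 with an unadjusted p under 0.05), 0 without CT22 (682), 1 without CT18 and 4 without CT14, and it was 18 without ZT2, which enters only the estimate of the spread. When CT2 was left out together with ZT2 and ZT18, the 3 arrays highest in gut and male transcripts, 12 passed and all 9 were among them.

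Mtk encodes metchnikowin, a short peptide active against fungi and bacteria, and had the largest change of the named genes that passed. Its signal was 9.67, 8.94 and 8.88 at CT2, CT6 and CT10, against 7.31, 7.80 and 7.37 at CT14, CT18 and CT22. Every subjective day array lay above the highest of the night, and the mean difference was 1.67 ± 0.28 (SE), a 3.18-fold change (adjusted p = 0.0286). DptB, a diptericin directed against Gram-negative bacteria and a standard readout of the Imd pathway, read 8.15, 7.35 and 7.14 in the subjective day, against 6.13, 6.43 and 6.26 in the night. The difference of 1.27 ± 0.20 was 2.41-fold (adjusted p = 0.0205), and CT2 was the highest array. Drs encodes drosomycin, an antifungal peptide and a standard readout of the Toll pathway. It read 8.37, 8.36 and 7.93 in the subjective day, against 7.11, 6.95 and 7.11 in the night, a difference of 1.16 ± 0.16 (2.24-fold, adjusted p = 0.00782). For all 3 genes CT10 was the lowest of the subjective day arrays and the groups did not overlap. Without CT2, at which other body parts' transcripts were high, the differences were 1.41 for Mtk, 0.97 for DptB and 1.09 for Drs, with adjusted p = 0.192, 0.053 and 0.053. Without ZT2, ZT18 and CT2 the sizes were the same, with adjusted p = 8.87e-05, 0.000162 and 0.00195. Robust moderation, which leaves the differences as they are, ended all 3 calls (adjusted p = 0.547 for Mtk, 0.483 for DptB and 0.125 for Drs), and over 21 alternatives Mtk passed in 12, DptB in 16 and Drs in 17.

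CG4757 was a dim transcript that read 3.52, 3.43 and 3.09 in the subjective day, against 2.45, 2.33 and 2.22 in the night. Each DD array was lower than the one before it, and the group difference was 1.01 ± 0.14 (2.02-fold, adjusted p = 0.00782). RMA compresses changes of transcripts this far below the array medians. CG9150 read 6.24, 6.49 and 6.42, against 5.84, 5.89 and 5.79, a difference of 0.54 ± 0.09 (adjusted p = 0.044), and it was the only one of the 8 higher probe sets with CT10 above CT2. It passed in 8 of 21 alternatives, and CG4757 in 17 of 20. Next to it, just outside the threshold, came DCAF12 (adjusted p = 0.0793).

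The single probe set that fell was that of retinin, whose protein is a component of the corneal nanocoating of the eye. It read 9.65, 9.46 and 9.28 at CT2, CT6 and CT10, against 10.12, 10.03 and 10.11 in the subjective night. The night arrays lay close together, each subjective day array was lower than the one before it, and the difference was -0.62 ± 0.11 (adjusted p = 0.0333), which passed in 10 of 21 alternatives. The other 14 measured genes of the list of corneal and neighbouring eye surface proteins gave no call, where 0.0553% of all genes passed. The list's median change was -0.01, against 0.00 over all genes.

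The 3 remaining probe sets have no gene name here. Probe set 143443_at read 6.40, 5.35 and 5.43, against 4.07, 4.52 and 4.06 (1.51 ± 0.24, adjusted p = 0.0205). Probe set 143609_at read 6.88, 6.43 and 6.14, against 5.21, 5.28 and 4.78 (1.40 ± 0.18, adjusted p = 0.00782). Probe set 147151_at read 9.68, 9.43 and 9.66, against 8.83, 8.83 and 8.72 (0.79 ± 0.11, adjusted p = 0.00782). In all 3, CT2 was the highest of the DD arrays and CT22 the lowest. Mtk, DptB and Drs were also highest at CT2, but lowest at CT14, CT14 and CT18.

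**Figure D1:**
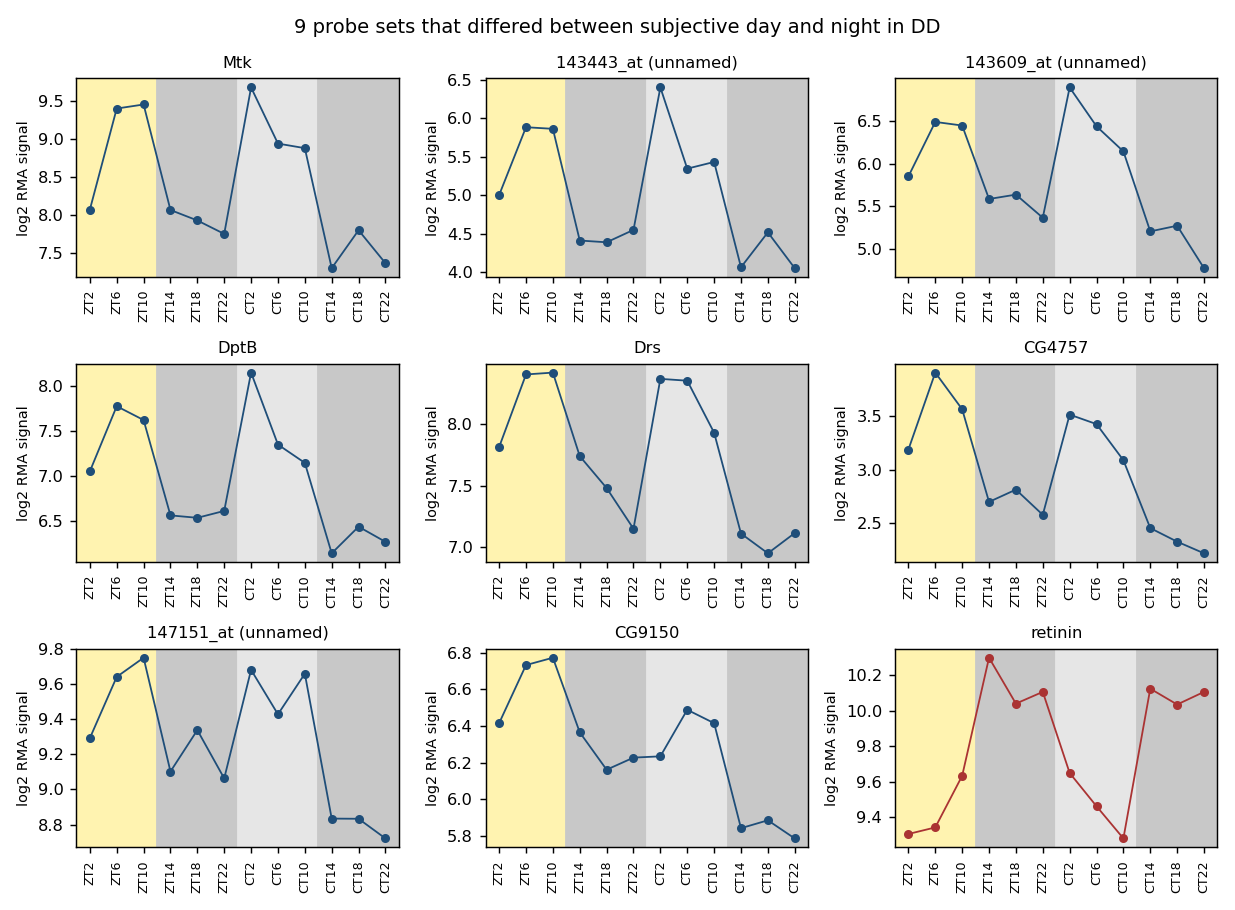
Log2 RMA signal of the 9 probe sets that passed, on the 12 arrays in order of sampling; each point is 1 array, yellow marks light, dark grey the dark phase in LD and the subjective night, pale grey the subjective day. The 8 blue profiles are higher at CT2 to CT10 than at CT14 to CT22, and retinin, in red, is lower.

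Between ZT22 and CT2 no light was given, and the signals of the last LD array and the first DD arrays can be set side by side. Mtk read 9.67 at CT2 and 8.94 at CT6, against 7.76 at ZT22. DptB read 8.15 and 7.35 at these hours, against 6.61, and Drs 8.37 and 8.36, against 7.15. All 8 probe sets that rose in the subjective day were higher at CT2 and at CT6 than at ZT22, 7 of them by over 0.5 at CT2. The exception was CG9150, with 6.24 at CT2 and 6.23 at ZT22. All 8 were also lower at CT22 than at ZT22, as in Mtk with 7.37 against 7.76 and in CG4757 with 2.22 against 2.58. These are single arrays with no error of their own. The 8 were picked by a contrast that used their CT2, CT6 and CT22 values, so their order around ZT22 follows in part from that choice. The dark day was sampled once, from 14 h (CT2) to 34 h (CT22) after the last lights-off, so time of day and time spent in darkness cannot be told apart within DD.

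The antimicrobial peptide list held 19 measured genes. Of these, 3 rose (Mtk, DptB and Drs) and 0 fell over all probe sets, where 0.0553% of all genes passed, 0.0461% higher and 0.00922% lower. An unadjusted p under 0.05 was reached by 9 in the direction of the subjective day and by 1 in the other, against 3.09% and 2.77% of all genes (5.86% in either direction). The median change of the list was 0.26, against 0.00 over all genes, and 15 of the 19 were positive, against 52% of all genes. Groups did not overlap for 8 genes that were higher and 1 that was lower in the subjective day, where 5.25% and 4.96% of all genes did so.

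Bomanins are short secreted peptides induced through Toll, and 8 were measured, all with positive changes. BomS5 read 9.24, 9.24 and 9.30 in the subjective day, against 8.46, 8.55 and 8.58 in the night, a difference of 0.73 ± 0.17 that did not pass (adjusted p = 0.251). BomBc3 read 8.29, 8.31 and 8.13, against 7.53, 7.63 and 7.73 (0.62 ± 0.17, adjusted p = 0.536). The spread behind these tests comes from all 4 groups. In the fit on the 6 DD arrays alone BomS5 (adjusted p = 0.000615) and BomBc3 (adjusted p = 0.00553) passed, and over all alternatives the adjusted p ran from 0.000615 to 0.832 for BomS5 and from 0.00553 to 0.971 for BomBc3. The remaining 6 Bomanins lay between 0.03 and 0.36 and included BomS2 at 0.36 ± 0.16, with overlapping groups. Bomanin genes are similar in sequence, so their probe sets may share signal. Listericin, an antibacterial peptide gene, was at 0.28 ± 0.11 with groups that did not overlap.

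Other members had small or negative differences. Def, a defensin against Gram-positive bacteria, read 6.83, 6.70 and 6.44 in the subjective day, against 7.04, 7.17 and 6.90 in the night. The difference of -0.38 ± 0.12 did not pass (adjusted p = 0.679), and no subjective day array reached the night's lowest. The 5 members with a mean below 5, among them CecB and AttD, which encode a cecropin and an attacin, had changes between -0.13 and 0.10 and none reached an unadjusted p under 0.05. IM33 was at -0.15 ± 0.11 and Drsl5, a drosomycin-like gene, at 0.17 ± 0.13.

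**Figure D2:**
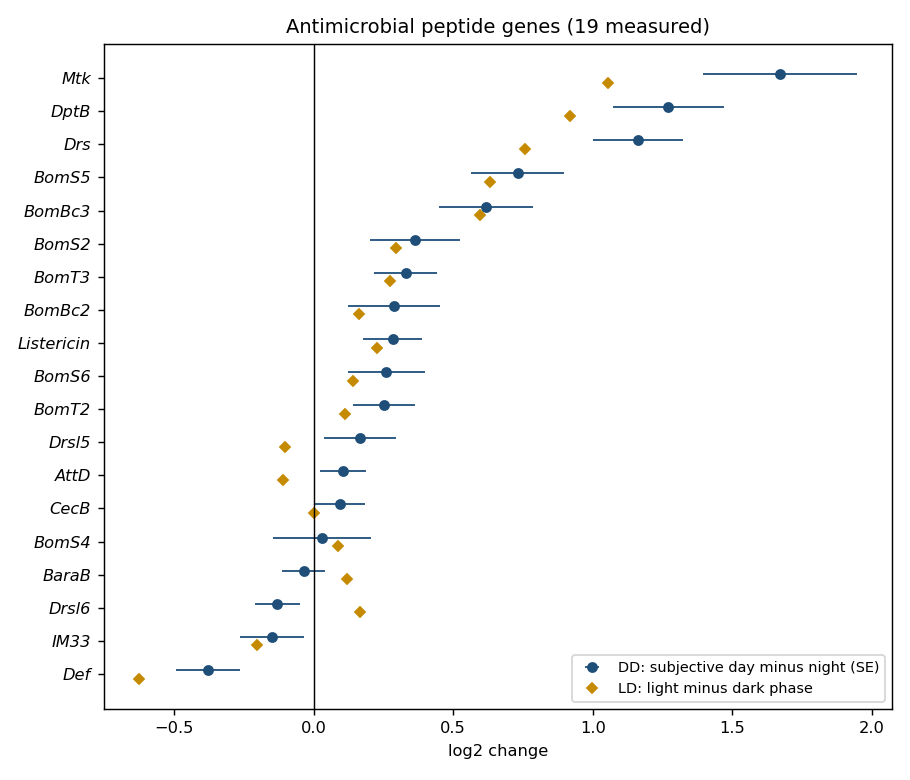
Log2 change of the 19 measured antimicrobial peptide genes; blue points with SE bars give the DD difference (subjective day minus subjective night) and yellow diamonds the LD difference (light minus dark phase). Mtk, DptB and Drs stand at the top with DD changes from 1.16 to 1.67, and Def at the bottom at -0.38.

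Among bacterial recognition genes 0 of 9 passed, and 2 were higher at an unadjusted p under 0.05, against 0.0553% and 3.09% of all genes. PGRP-SB1, a peptidoglycan amidase, read 8.99, 8.52 and 8.40, against 8.10, 8.30 and 8.24 (0.42 ± 0.15, adjusted p = 0.77). PGRP-LB, an amidase that dampens the Imd response, read 5.17, 5.11 and 5.01, against 4.84, 4.86 and 4.86 (0.24 ± 0.08, adjusted p = 0.737). Both had groups that did not overlap, with the subjective day above, as 5.25% of all genes did, and the list's median was 0.09. Among 27 genes of Toll and Imd signalling 0 passed and 0 reached an unadjusted p under 0.05, against 0.0553% and 5.86% of all genes. The median of this list was 0.02. The 3 members with the smallest p were lower in the subjective day: psh at -0.16 ± 0.09, Charon at -0.14 ± 0.08 and ben at -0.12 ± 0.07. Outside these 3, Rel, the NF-kappaB factor of the Imd pathway, was at 0.07 ± 0.08. Dif, that of Toll, was at 0.12 ± 0.10, and cact, its inhibitor, at -0.03 ± 0.06. The 6 stress-induced humoral genes ranged from -0.11 to 0.24.

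Markers of other body parts also leaned to the subjective day. Gut enzyme genes had a median change of 0.11 with 36 of 43 positive, and male reproductive tract genes 0.18 with 26 of 30 positive. Over all genes 52% were positive. No gut or male gene passed (0 of 43 and 0 of 30), where 0.0553% of all genes did. Every subjective day array lay above every night array in 9 of the 43 gut genes and 5 of the 30 male genes. They lay below in 0 of each, against 5.25% above and 4.96% below over all genes. Without CT2 the medians were 0.08 and 0.03, and that of the antimicrobial list was 0.22. Cyp4g1, a hydrocarbon synthase of oenocytes, cells beneath the abdominal cuticle, was picked out after its values were seen. It read 8.47, 6.12 and 4.53 at CT2, CT6 and CT10, against 3.95, 4.31 and 3.89 in the night (2.32 ± 1.23, adjusted p = 0.829), and 9.95 at ZT2 and 7.88 at ZT18. At ZT2 the gut, male and Cyp4g1 levels were the highest of the 12 arrays. The antimicrobial list was at -0.17 there, and at 0.24 at CT2 and 0.24 at CT6, each a single array. With the gut and male level as a covariate, 18 probe sets passed, the 9 among them. Beyond that fit, the part of other body parts in the antimicrobial changes was not tested.

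No blood cell or fat body gene passed (0 of 16 and 0 of 18), where 0.0553% of all genes did. The 16 hemocyte genes had a median of -0.05 and 12 of them were negative, where 52% of all genes were positive. NimC1, a phagocytosis receptor, was the lowest of them at -0.31 ± 0.13, with overlapping groups. Groups did not overlap for vkg, lower at -0.28 ± 0.09, and for NimB2, higher at 0.15 ± 0.07. Over all genes 4.96% were separated with the subjective day below and 5.25% with it above. The 18 fat body and yolk genes had a median of -0.04. The female-biased fit read 8.81, 8.73 and 8.78, against 9.10, 9.31 and 9.24 (-0.45 ± 0.16, adjusted p = 0.77). Obp99a was at -0.49 ± 0.20, while the iron carrier Tsf1, itself an immune-responsive gene, was at 0.34 ± 0.09 and CG5966, a lipase-like gene, at 0.58 ± 0.20. The yolk protein genes Yp1 and Yp2 were at -0.04 ± 0.10 and -0.10 ± 0.11. Measures of RNA quality also leaned one way. The 3' minus 5' signal of the eIF-4a control was 2.81, 2.74 and 2.56 in the subjective day, against 3.04, 2.90 and 2.75 in the night. That of the GAPDH control was 2.210, 2.329 and 2.131, against 2.336, 2.398 and 2.334, groups that did not overlap. That of the actin control was 2.62, 2.52 and 2.18, against 2.46, 2.76 and 2.45. With the eIF-4a measure as a covariate 16 probe sets passed, 5 of the 9 among them. These included Drs (1.10, adjusted p = 0.0464), DptB (1.19, adjusted p = 0.0468) and CG4757 (0.97, adjusted p = 0.0464). Mtk (1.44, adjusted p = 0.0672), retinin (-0.61, adjusted p = 0.0642) and CG9150 (0.44, adjusted p = 0.126) did not pass. Beyond these fits, the part of these measures in the results was not tested.

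**Figure D3:**
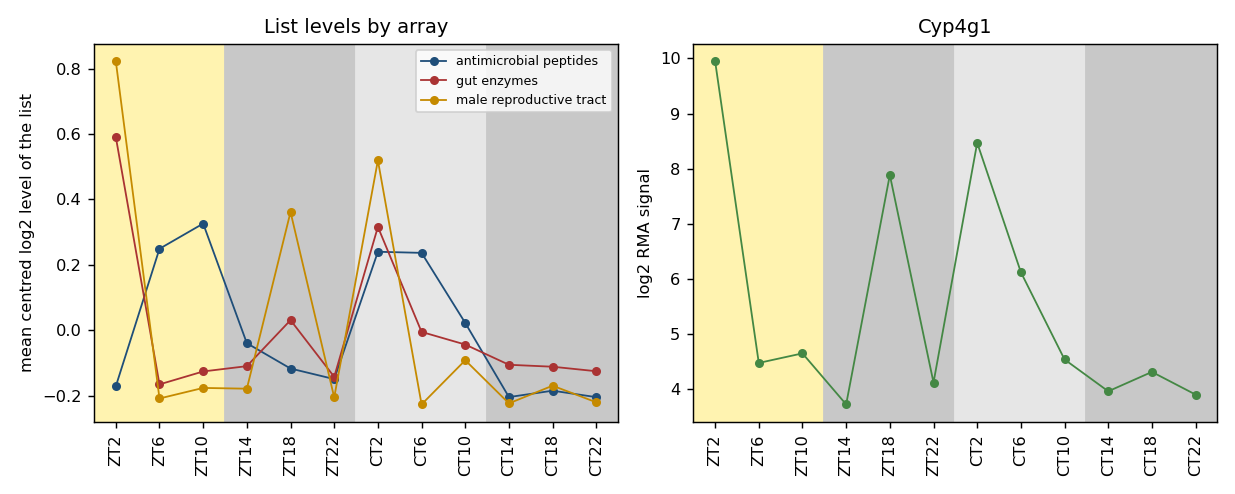
Left, mean centred log2 level of the antimicrobial, gut and male reproductive tract lists on each array; right, log2 RMA signal of Cyp4g1; shading marks light and dark as in the profiles. Gut, male and Cyp4g1 signals are high at ZT2, ZT18 and CT2. The antimicrobial list is at -0.17 at ZT2, 0.24 at CT2 and 0.24 at CT6.

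Of the next genes in order of p that were higher in the subjective day, none passed. DCAF12, a substrate receptor of a ubiquitin ligase, read 3.99, 3.87 and 3.81, against 3.27, 3.41 and 3.62 (0.46 ± 0.09, adjusted p = 0.0793). CAH5, a carbonic anhydrase gene, read 7.40, 7.39 and 7.25, against 6.88, 6.86 and 6.95 (0.45 ± 0.09, adjusted p = 0.132). Gnmt, which encodes the glycine N-methyltransferase that uses up S-adenosylmethionine, read 8.85, 8.14 and 8.23, against 7.70, 7.45 and 7.80 (0.76 ± 0.16, adjusted p = 0.231). Arc1, a retrotransposon-derived neuronal gene, was at 0.60 ± 0.13 and CG8012 at 0.36 ± 0.08. All 5 separated the groups completely, where 5.4% of all probe sets had every subjective day array above every night array. They were picked by the p of this contrast, so the separation follows in part from that choice.

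The genes next in order of p that were lower in the subjective day did not pass either. Nplp3, a neuropeptide-like precursor, read 10.36, 10.71 and 10.45, against 10.96, 10.90 and 10.89 (-0.41 ± 0.09, adjusted p = 0.251). CCHa2, a nutrient-sensitive peptide that acts on insulin-producing cells, was lowest at CT2 and highest at CT22, with 6.04, 6.22 and 6.35 in the subjective day, against 6.49, 6.57 and 6.68 in the night (-0.38 ± 0.09, adjusted p = 0.255). In the same list Mip, a myoinhibitory peptide gene, had the opposite sign, with 4.44, 4.06 and 4.25, against 3.73, 3.83 and 3.98 (0.40 ± 0.10, adjusted p = 0.286). Over the 27 neuropeptide genes the median was -0.02 and 0 passed, where 0.0553% of all genes did. Fs, the activin-binding follistatin, was at -0.40 ± 0.09 on a dim probe set and at -0.13 ± 0.08 on its brighter one (adjusted p = 0.835). The carboxylesterase alpha-Est2 was at -0.42 ± 0.10, CG4000 at -0.38 ± 0.09 and the aminopeptidase Psa at -0.36 ± 0.09. CG32488, SkpC and Daao1, a D-amino acid oxidase gene, lay between -0.31 and -0.26.

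No gene of the clock loop passed, where 0.0553% of all genes did. The brightest probe set of tim read 6.78, 6.92 and 6.62 in the subjective day, against 6.90, 6.74 and 6.65 in the night (0.01 ± 0.09, adjusted p = 0.994). Of its dimmer probe sets, 1 was at 0.19 ± 0.08 (unadjusted p = 0.0415, adjusted p = 0.829) and 1 at 0.06 ± 0.08. Where these probe sets lie relative to the tim01 lesion is not known here, so the signals check nothing about the genotype. The partner gene per averaged 4.77 ± 0.10, against 4.83 ± 0.10 (SD, n = 3 arrays each, limma adjusted p = 0.948). Over 9 loop genes (per, tim, Clk, cyc, vri, Pdp1, cry, cwo and dco, which encodes the kinase that phosphorylates per) changes at the brightest probe set ran from -0.13 to 0.09 and the smallest adjusted p was 0.87. None of the 9 had separated groups (0), which says little for so few genes, since 5.25% of all genes had the subjective day above and 4.96% below. Within the wider list of 17 clock genes, Pdf had the largest change. This transmitter of the clock neurons read 6.51, 6.66 and 6.66, against 6.44, 6.33 and 6.37, groups that did not overlap, and the difference of 0.23 ± 0.08 did not pass (adjusted p = 0.77).

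Of 28 measured genes reported in earlier work as clock outputs in heads, 0 passed, where 0.0553% of all genes did. Their median was 0.01. At an unadjusted p under 0.05, 1 was higher and 3 were lower, against 3.09% and 2.77% of all genes. Every subjective day array lay below every night array in 4 and above in 0, against 4.96% and 5.25% of all genes. The largest changes belonged to cuticle-type and P450 genes: Cpr49Ae at -0.48 ± 0.12, Cpr72Ec, a corneal lens protein gene, at 0.35 ± 0.13, and Cyp18a1, an ecdysteroid-inactivating enzyme, at -0.34 ± 0.10. Cpr72Ec and retinin, both of the corneal surface, had opposite signs.

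Of all 33 lists, 31 had no member that passed, which says little where 0.0553% of all genes did. Outside the antimicrobial, gut and male lists the medians lay between -0.11 and 0.09. Glycolysis was lowest, with 10 of 14 genes negative, Gpdh1 at -0.24 ± 0.10 among them. Lipid metabolism had a median of -0.06 with 20 of 26 negative, including the fatty acid synthase gene FASN1 at -0.26 ± 0.12 and eas, an ethanolamine kinase gene, at -0.31 ± 0.13. Of 60 genes of oxidative phosphorylation 40 were negative, and of 20 phototransduction genes 16 were positive, with medians of -0.04 and 0.05. Over all genes 52% were positive. In the phototransduction list 2 genes reached an unadjusted p under 0.05, Calx (-0.34 ± 0.15) and laza (-0.18 ± 0.09). Both were lower in the subjective day, as 2.77% of all genes were at that threshold. Eye pigment and retinoid genes had a median of -0.04. The pteridine enzyme gene pr read 7.35, 7.45 and 7.16, against 7.62, 7.61 and 7.54 (-0.27 ± 0.07, adjusted p = 0.536). Detoxification genes had medians of 0.01 (80 P450 genes), 0.03 (34 glutathione S-transferases) and 0.00 (33 UDP-glycosyltransferases). Cyp6a8 at 0.40 ± 0.11 and GstD2 at 0.26 ± 0.08 were the members with the smallest p in the first 2 of these.

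**Figure D4:**
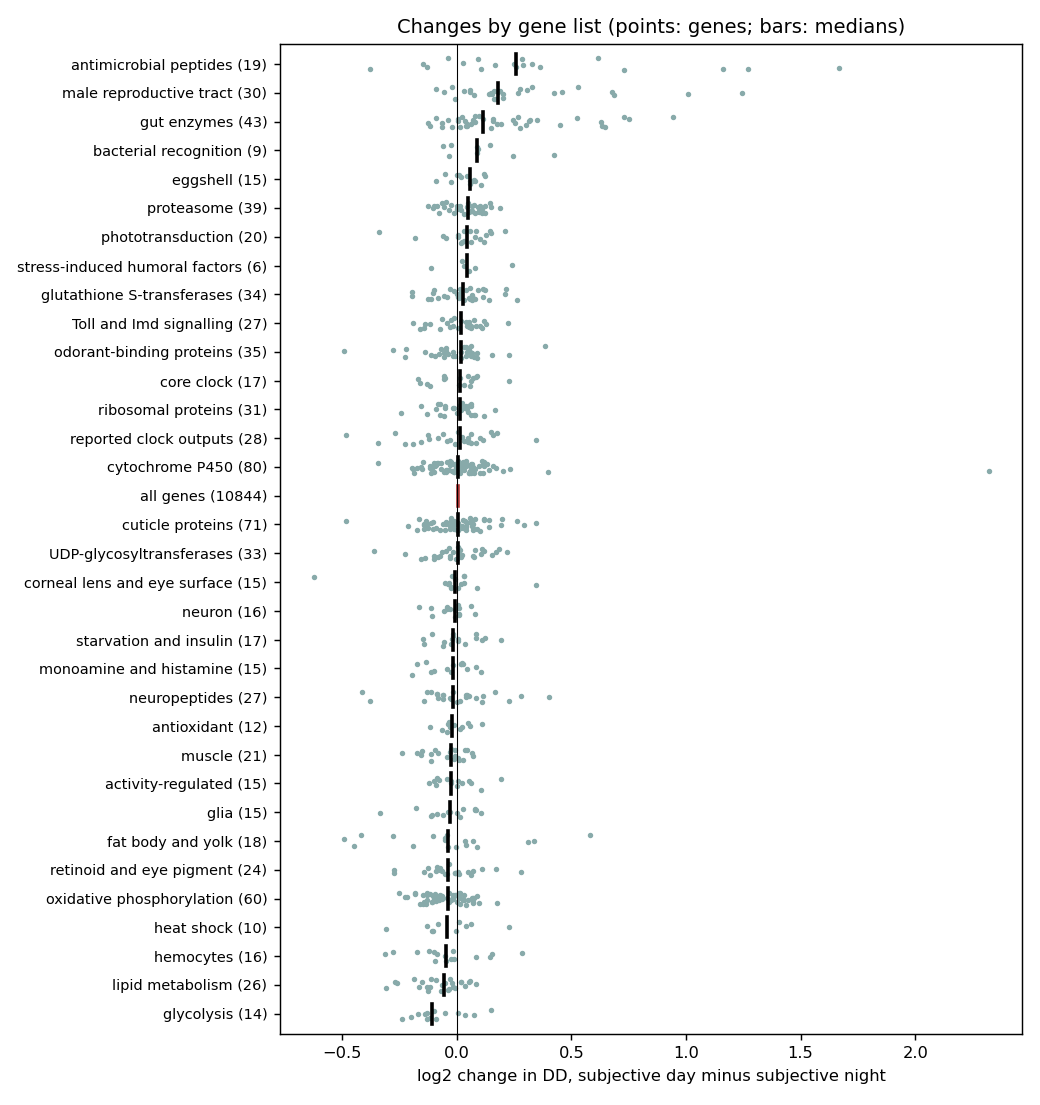
Log2 change in DD (subjective day minus subjective night) of the measured genes of 33 lists; points are genes, vertical bars list medians, and the number of genes is in parentheses, with the median of all 10844 genes in red. The antimicrobial list has the highest median, 0.26, and glycolysis the lowest, -0.11.

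The LD day offers the same contrast on 6 other arrays. All 9 probe sets had the same direction there, light phase against dark phase, as 51.9% of all probe sets did. All 9 also reached an unadjusted p under 0.05, against 6.26% of all probe sets. Both contrasts share 1 estimate of the spread, so probe sets picked in DD partly for a small spread have it in LD too. After adjustment 2 passed in LD, retinin (-0.72 ± 0.11, adjusted p = 0.0158) and CG4757 (0.86 ± 0.14, adjusted p = 0.03), where 0.129% of probe sets did. The DD change was the larger in 8 of the 9, for example 1.67 against 1.05 in Mtk and 1.16 against 0.76 in Drs, with retinin the exception; since the 9 were selected by their DD test, a larger DD change follows in part from that choice. The differences between the regimes did not pass: 0.61 ± 0.39 for Mtk, 0.40 ± 0.23 for Drs and 0.35 ± 0.28 for DptB (limma, adjusted p = 0.935 for each). In LD, Mtk read 8.07 at ZT2, 9.40 at ZT6 and 9.45 at ZT10, so ZT2 was the lowest of its light phase arrays, whereas CT2 was the highest array in DD. Over all probe sets, 0 passed the test of the DD minus LD contrast with limma (0%), and 727 had an unadjusted p under 0.05 (5.21%).

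Larger DD changes more often had the same sign in LD, as a description of these probe sets. Among 26 probe sets with an unadjusted p under 0.05 and a change of at least 0.5 in DD, 24 had the same sign in LD (92.3%). Of the 454 that were higher, 57.0% had the same sign, and of the 362 that were lower, 60.2%, against 51.9% of all probe sets. Across all 13966 probe sets the 2 contrasts correlated at 0.23 (Pearson). Probe sets are not independent replicates, and ZT2 and CT2, both in the day groups, share the transcripts of other body parts. Without ZT2, ZT18 and CT2 the correlation was 0.187. CAH5, which did not pass in DD, had a change of 0.72 ± 0.09 in LD (adjusted p = 0.0026), and DCAF12 was larger in DD than in LD by 0.46 ± 0.12, which did not pass (adjusted p = 0.758).

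**Figure D5:**
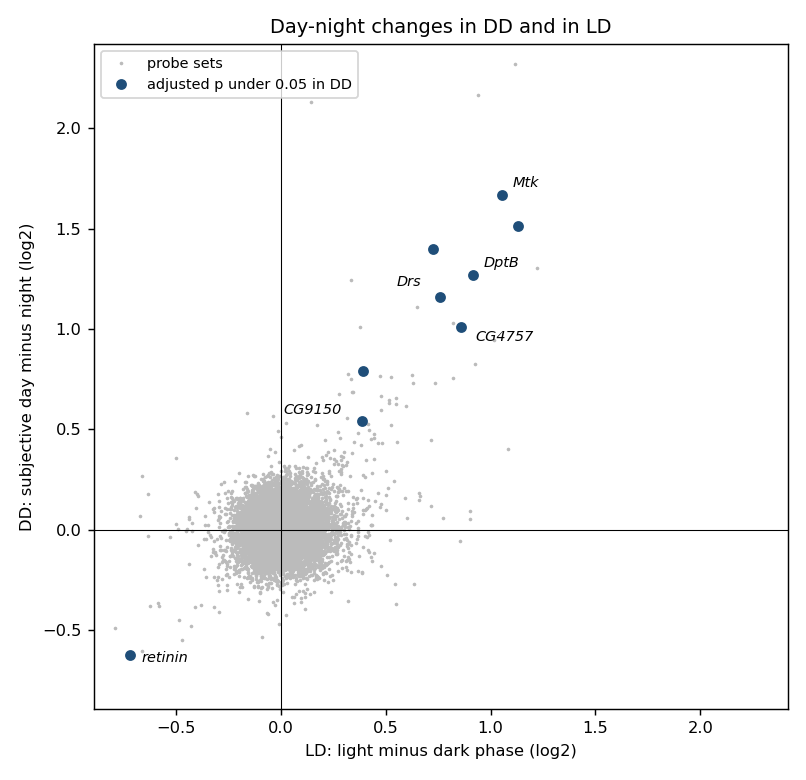
Log2 change between subjective day and night in DD (vertical) against that between light and dark phase in LD (horizontal) for 13966 probe sets in grey, with the 9 that passed in DD in blue. All 9 blue points lie in the quadrants of equal sign, 8 at upper right and retinin at lower left.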

How the data were processed

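Signals were deposited as log2 values that the authors computed with RMA, per the submitters' processing notes; the version is not given in the sources used here. RMA brings arrays to nearly 1 distribution, so a shift shared by most transcripts would be hidden. Counts and detection calls were not used here, and the number of arrays limits the precision.

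Of 14010 probe sets, 44 controls were left out. In the platform annotation 12443 probe sets had 1 symbol, 327 had several and 1196 had none; 12394 of the first kind matched the RefSeq gene table. No filter on low values was used. In R 4.3.3, limma 3.58.1 was used (eBayes after lmFit, intensity trend on): 1 mean per group was fitted to all 12 arrays (8 residual degrees of freedom), with Benjamini-Hochberg adjustment over 13966 probe sets. No label says that an hour was sampled more than once, so p-values measure the spread between hours. SEs are limma's and SDs come from a group's 3 arrays. No 2 arrays shared more than 56 identical values.

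Named genes are those that passed, the 10 with the smallest p in each direction, and the clock and antimicrobial genes. Genes were also taken from the 3 smallest p of each of 33 lists. Markers of cell types such as Arr2, Yp1 and Yp2 were named too. Rel, Dif, cact, FASN1 and Cyp4g1 were named outside this rule. Lists were described by counts and medians, at each gene's brightest probe set. The comparison, members and lists were chosen with earlier results of these data known. On simulated data with these arrays' spread, changes of 0.5 were recovered in 96% of 50 probe sets and of 1 in 98%. Changes of 1.5 and of 2 were recovered in 100%. The count of false calls was 13 for every size. The number of planted changes affects the adjusted threshold, so these rates do not tell how many real changes of such sizes were missed. In the real data 43 probe sets were higher and 4 lower by at least 0.5, and 9 probe sets passed. Alternatives were the fit on DD arrays only, other moderation, array weights, quantile normalization, brighter probe sets, covariates, and arrays left out.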

Additional observations from a re-analysis of the deposited data

Results flagged for a closer look

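Lsd-1, a perilipin gene whose product coats lipid droplets, had opposite signs in the regimes, and in each its groups did not overlap. In DD it read 7.55, 7.81 and 7.70 in the subjective day, against 7.87, 7.93 and 8.07 in the night, a log2 change of -0.27 ± 0.10 (limma, adjusted p = 0.77). In LD the change was 0.54 ± 0.10 (adjusted p = 0.0443), with means of 8.20 in the light phase and 7.66 in the dark phase. The difference of the contrasts, -0.81 ± 0.14, did not pass (adjusted p = 0.121).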

How the results depend on the processing

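The count of 9 probe sets in the DD comparison was 18 from the 6 DD arrays alone, 18 with the gut and male covariate, 16 with the eIF-4a covariate and 4 with robust moderation. Leaving out 1 array at a time gave 0 to 18, the LD arrays being an alternative chosen after seeing the data. It was 8, 7, 10, 8 and 12 without the intensity trend, with array weights, after quantile normalization, among brighter probe sets only, and without ZT2, ZT18 and CT2. For the 9 probe sets, 57 of 188 refitted values no longer passed. The sign never changed, which says little. Several alternatives leave the difference as it is, and groups that do not overlap keep their sign when an array is left out. Mtk ranged from 1.41 to 1.84, Drs from 1.09 to 1.31 and retinin from -0.72 to -0.53. Over all 143 named probe sets 26 of 2974 values changed sign, none of them called.

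The count of 0 for the DD minus LD difference was 2 with robust moderation, 3 with array weights, 3 with the gut and male covariate, 4 with the eIF-4a covariate, 3 with clock hour as a replicate block, and 0 to 2 with 1 array left out. No paired analysis was possible within DD because each hour holds 1 array. No list median changed sign when all probe sets of a gene were averaged. Dim transcripts such as CG4757 and Clk are limited by RMA's compression.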
